A study of Caenorhabditis elegans with 2 samples.

Results

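The 10 genes described here encode histone-modifying enzymes and synMuv proteins of Caenorhabditis elegans, and the measurement is where the chromatin remodeller CHD-7 was found around them. They are cbp-1, hda-1, set-2, met-1, mes-4, met-2, jmjd-1.2, utx-1, lin-35 and lin-53, out of 19973 annotated protein-coding genes. The genes were selected on peak values of these same data, so their counts are descriptions and carry no test. Every deposited peak summit in a gene or within 5 kb of either end was taken. This gave 88 candidate summits of the 30000 in the list called on the pooled replicates. Of these, 8 were in the authors' reproducible list, which is as long as 6.28% of the pooled list. Membership followed the pooled signal, a value from the peak caller. The lowest signal in the reproducible list was 166, and the highest outside it was also 166. A summit is called reproducible here if it is in that list, which does not show that both replicates ranked it alike.

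CHD-7 positions were measured by chromatin immunoprecipitation and sequencing (ChIP-seq) in whole worms of strain OP609, genotype unc-119(tm4063) III; wgIs609. The integrated transgene wgIs609 makes CHD-7 with GFP and FLAG at its C-terminal end, and the tagged protein was precipitated with an antibody to GFP. There was 1 group of 2 biological replicates of young adults, both sexes pooled, collected 67 hours after synchronisation as starved first-stage larvae obtained by bleaching. Sequencing depth is unknown, since only peak lists were used, and the control experiment was not analysed here. All tissues were mixed in a library, so a peak is an average over the whole animal and cannot be assigned to a cell type, and with 1 group no condition can be compared with another.

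Chemical marks on histones set how readily a gene is transcribed: acetylation and methylation of lysine 4 of histone H3 go with active genes, and methylation of lysine 9 or lysine 27 with silent ones. SynMuv genes, named for the synthetic multivulva phenotype of double mutants, hold vulval and germline genes in check in the worm, and many encode chromatin proteins, among them the worm retinoblastoma protein LIN-35. CHD-7 itself is a chromodomain ATPase that slides or evicts nucleosomes, related to CHD7 of vertebrates.

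Of the 10 genes, 6 had a reproducible CHD-7 summit in the promoter window, which reached 1000 bp to the upstream side and 200 bp to the downstream side of the annotated 5′ end. They were cbp-1, jmjd-1.2, met-1, set-2, lin-35 and lin-53. The same window held a reproducible summit in 4.18% of all protein-coding genes (834 of 19973). Counted only for the gene with the nearest 5′ end, 3 members kept one (cbp-1, met-1 and set-2), against 3.35% of protein-coding genes, and a window of 500 bp up and 100 bp down lost cbp-1. The sequences that follow are the 150 bases around the promoter summits of cbp-1, jmjd-1.2 and set-2, read on the strand of each gene from the RefSeq assembly of the files' build (WBcel235, which is ce11). Those of cbp-1 and jmjd-1.2 share a 12-letter word, printed in capitals, beside their summits, and that of set-2 lacks it. The promoter summit sequences of met-1, lin-35 and lin-53 are not printed. Other capitals mark GAGAGA read on the other strand (TCTCTC, in cbp-1) and TTTGAA (in set-2).
cbp-1 (chrIII:9765577-9765726, plus strand): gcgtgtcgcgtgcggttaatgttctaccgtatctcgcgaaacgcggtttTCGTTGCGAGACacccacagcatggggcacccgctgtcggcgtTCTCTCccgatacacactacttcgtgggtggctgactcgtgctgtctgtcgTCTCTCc
jmjd-1.2 (chrIV:4660419-4660568, plus strand): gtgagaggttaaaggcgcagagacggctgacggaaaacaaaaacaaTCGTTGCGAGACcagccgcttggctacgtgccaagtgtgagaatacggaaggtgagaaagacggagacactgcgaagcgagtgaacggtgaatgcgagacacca
set-2 (chrIII:4930388-4930537, minus strand): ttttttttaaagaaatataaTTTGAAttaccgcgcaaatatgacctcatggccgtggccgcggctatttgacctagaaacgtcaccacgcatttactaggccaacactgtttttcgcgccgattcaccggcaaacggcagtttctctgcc

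The shared word was picked after the sequences had been read. It is the longest word held by at least 3 of the 8 windows around the members' reproducible summits. Its presence in 3 of these windows was thus fixed by the search, and its counts are descriptions. Its middle lay 20 bp from the summit at cbp-1, 23 bp at jmjd-1.2 and 27 bp at the promoter summit of lin-53, the third window that holds it. It read along the strand of the member gene in all 3. Among all 150-base windows, it was in 5 of those around reproducible summits (0.265%) and in 11 of the 28116 around other candidates (0.0391%). The 5 include the 3 windows from which the word was picked, so nothing is read from the difference. In the whole genome the word occurred 208 times, of which 6 (2.88%) were inside a reproducible peak and 181 (87%) inside no candidate peak. Most copies of the word therefore lay where no candidate was listed.

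Known motifs were counted in the 8 windows around reproducible summits of the 10 genes, on both strands. The cell-cycle homology element TTTGAA, bound by LIN-54 in DREAM complexes of worm and human, was in 3 of 8 (set-2, the lin-53 promoter and a distal lin-53 summit), against 19.4% of all reproducible windows and 23.3% of other candidate windows. GAGAGA was in 2 of 8 (cbp-1 and lin-35), against 30.1% of reproducible and 12.9% of other windows. CACGTG, the E-box core, was in the met-1 window only, and was in 9.82% of reproducible and 4.88% of other windows. TGATAA was in 1 window, against 10.4% of reproducible and 10.7% of other windows. GCGGGAA was in none of the 8, against 3.18% of reproducible and 2.17% of other windows. TATAAA was also in none, against 6.85% of reproducible and 7.75% of other windows. The GC content of the promoter windows was 59.3% at cbp-1, 53.3% at jmjd-1.2, 52.0% at lin-53, 49.3% at met-1, 46.0% at set-2 and 37.3% at lin-35. All reproducible windows had a median of 47.3%, with quartiles of 42.0% and 52.0%, so cbp-1 and jmjd-1.2 lay above the upper quartile and lin-35 below the lower. The distal windows of lin-53 had 40.7% and 31.3%.

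Among the acetylation enzymes, cbp-1 carried the strongest candidate of the set and hda-1 had no reproducible summit. The gene cbp-1 encodes the worm CBP/p300 acetyltransferase, which acetylates histone H3, and lies on the plus strand of chromosome III at 9766509 to 9774825 (ce11). Its promoter peak spanned III:9765472-9765785, with the summit 857 bp upstream of the 5′ end in intergenic sequence. Its signal, a value from the authors' peak caller used here to describe and rank peaks within a list, was 841, which is rank 23 of the 30000 pooled entries. The overlapping entries had rank 21 with a signal of 426 in replicate 1 and rank 26 with a signal of 415 in replicate 2. Both replicates thus put it among their highest entries, and only 0.340% of protein-coding genes had a higher candidate within 5 kb.

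The other 11 candidates around cbp-1 were lower in the list, the next having a signal of 139 at rank 2990. That next candidate lay 12684 bp downstream of the 5′ end, in an intron of sqv-3, at rank 12078 in replicate 1 and rank 1898 in replicate 2. A candidate in the coding sequence of cbp-1, 1767 bp into the gene, had a signal of 137 and ranks 4752 and 4406 in replicates 1 and 2. A summit 70 bp upstream of the annotated 5′ end had 58.4, so the strong peak of this gene is not at the annotated 5′ end. Where transcription starts was not measured here. A further candidate with a signal of 129 lay 1579 bp upstream, within 100 bp of the non-coding RNA genes R10E11.10 and R10E11.12.

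The gene hda-1 encodes a class I histone deacetylase, a subunit of the NuRD complex, on the plus strand of V:14525389-14527411. None of its 9 candidates was reproducible. The highest, with a signal of 104 at rank 6645, lay 2201 bp downstream of the 5′ end and so beyond the end of the gene, and it had rank 17196 in replicate 1 and rank 2567 in replicate 2. In the promoter window were a summit 36 bp upstream with a signal of 77.4 at rank 13821 and a second at 821 bp upstream with 56.4 at rank 24733, which was nearer to the 5′ end of ril-1. Each was below 166, the lowest signal in the reproducible list, and 45.9% of protein-coding genes had a higher candidate than hda-1.

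**Figure D1:**
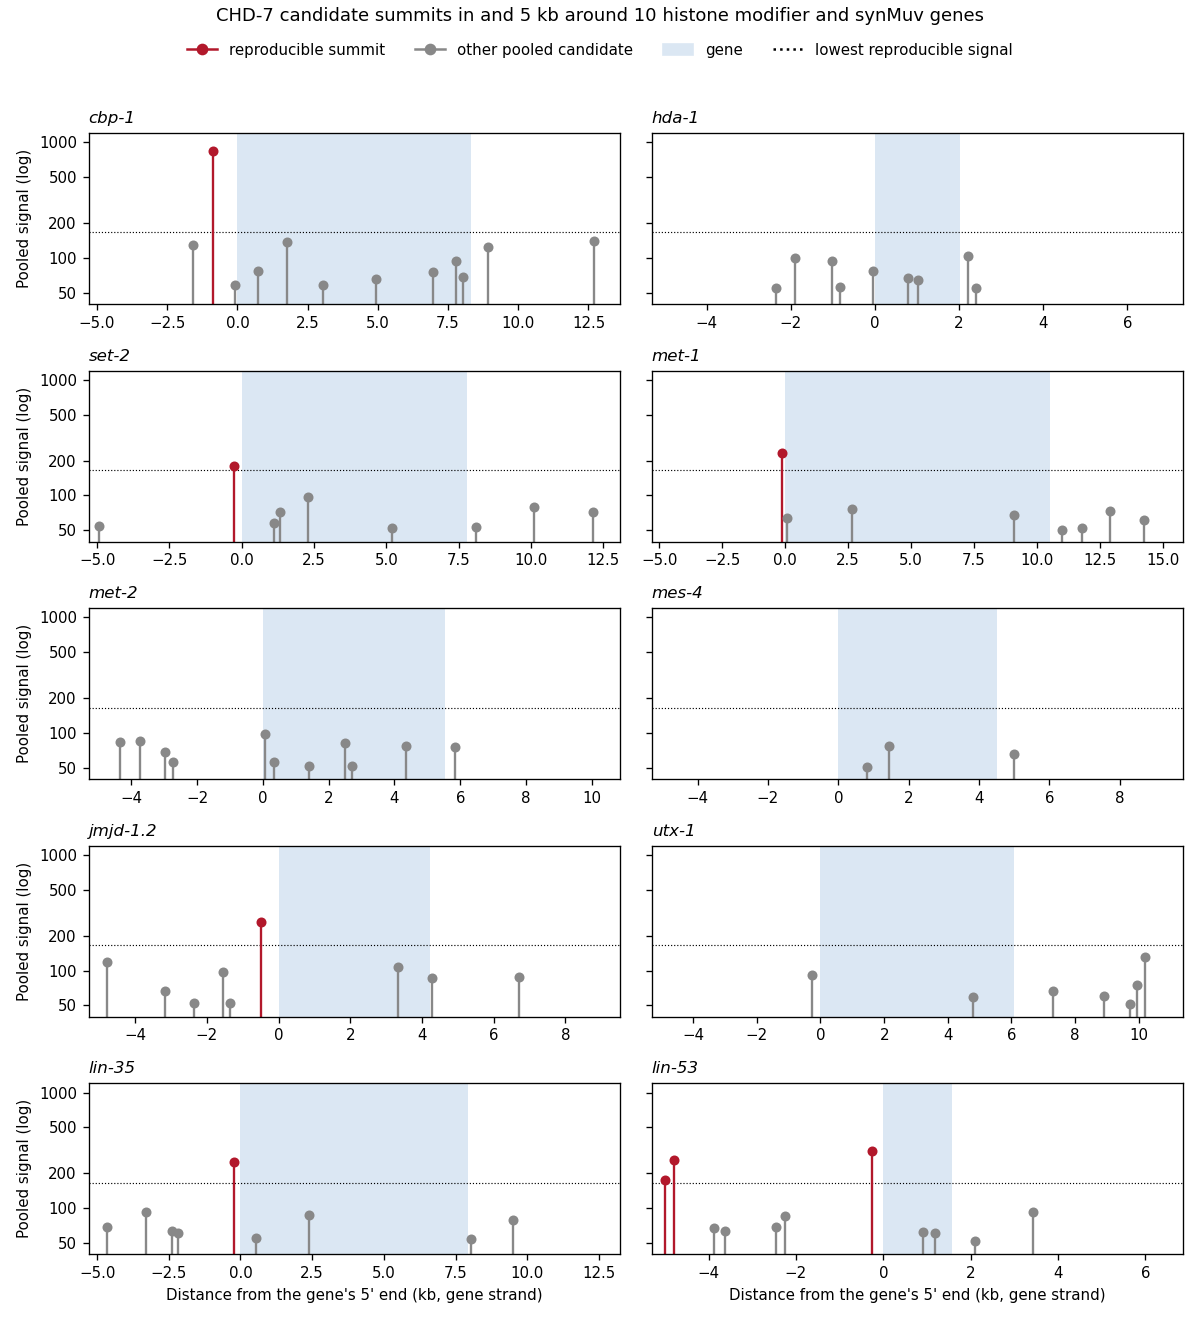
Candidate CHD-7 summits around the 10 genes: the horizontal axis is distance from the annotated 5′ end in kb, with the gene's direction to the right, and the height of each line is the pooled signal on a log scale. Red marks the 8 reproducible summits and grey the other 80; the red lines stand upstream of the 5′ ends of 6 genes, with cbp-1 at 841, and lin-53 has 2 more near the edge of its window.

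Of the 3 genes for activating or elongation-linked methylation, set-2 and met-1 had a reproducible promoter summit and mes-4 had no candidate in its promoter window. The gene set-2 encodes the catalytic subunit of the COMPASS complex, which methylates lysine 4 of histone H3, on the minus strand of III:4922427-4930204. Its peak at III:4930268-4930657 had its summit 259 bp upstream, a pooled signal of 179.7 and rank 1523. The replicates differed over it: rank 9982 with a signal of 55.8 in replicate 1 and rank 720 with a signal of 126 in replicate 2. That is a 13.9-fold difference in rank, against a median of 1.89 over the 1831 reproducible peaks met in both replicates, and 1.75% of those peaks had a larger one. Taken without replicate 2, as an equal number of the highest entries of replicate 1 alone, the list had no summit in the set-2 window, so the call for set-2 rests on replicate 2.

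The gene met-1 encodes a methyltransferase for lysine 36 of histone H3, a mark laid down during transcription elongation, on the plus strand of I:4254197-4264699. Its reproducible summit lay 140 bp upstream of the 5′ end in I:4253862-4254251, with a pooled signal of 232 at rank 818. It had rank 894 with a signal of 121 in replicate 1 and rank 712 with a signal of 127 in replicate 2, so the replicates placed it alike. The summit was in an intron of C43E11.12, a gene on the same strand that ends inside the met-1 promoter window, but the nearest 5′ end of a protein-coding gene was that of met-1. A lower candidate 71 bp into met-1 had a signal of 64.3 and overlapped the same entries as that summit in both replicates. The remaining candidates of this gene of 10503 bp were at or below 76.9.

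The gene mes-4 encodes the other lysine 36 methyltransferase, which maintains the mark on germline-expressed genes, on the minus strand of V:13433050-13437545. It had 3 candidates, the fewest of the set. The highest, 1426 bp into the gene in a coding exon, had a signal of 77.2 at rank 13883, with rank 11064 in replicate 1 and rank 23558 in replicate 2. The other mes-4 candidates had no overlapping entry in replicate 2. A higher candidate was found around 65.9% of protein-coding genes, so mes-4 stood in the lower part of the range.

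The lysine 9 methyltransferase gene met-2, counterpart of mammalian SETDB1 and itself a synMuv gene, lies on the plus strand of III:8375300-8380848. It had 11 candidates and none was reproducible. The highest was in its promoter window, 68 bp downstream of the 5′ end in a coding exon, with a signal of 97.3 at rank 7865. The overlapping entries had rank 9427 with a signal of 57.0 in replicate 1 and rank 4628 with a signal of 58.4 in replicate 2. Its candidates had signals between 51.5 and 97.3, and 50.9% of protein-coding genes had a higher one than met-2. In these values met-2 was near the middle of all protein-coding genes, 4067 of which had no candidate and count as lower. Over the genes with a candidate the median highest signal was 113, above that of met-2.

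Of the demethylase genes, jmjd-1.2 had a reproducible promoter summit and utx-1 did not. The gene jmjd-1.2 encodes a PHF8-type demethylase for lysines 9 and 27 of histone H3, known in the worm for its part in the mitochondrial stress response, on the plus strand of IV:4660991-4665212. Its summit was 497 bp upstream in IV:4660299-4660688, with a pooled signal of 263 at rank 604. The ranks in the replicates were 620 with a signal of 139 in replicate 1 and 622 with a signal of 134 in replicate 2, the closest of the set. The summit lay 293 bp upstream of the 5′ end of F29B9.11, a gene that runs the other way, and was thus nearer to that gene. The next candidate around jmjd-1.2 had a signal of 119.7, in a coding exon of the collagen gene col-111, 4778 bp upstream.

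The gene utx-1 encodes a demethylase for lysine 27 of histone H3, on the plus strand of X:8557146-8563238. A candidate 266 bp upstream of its 5′ end had a signal of 91.7 at rank 9154. It was met at rank 3428 with a signal of 78.4 in replicate 1 and by no entry in replicate 2. The highest candidate in the window had a signal of 130.0 at rank 3552, but lay 10194 bp downstream of the 5′ end, beyond the gene, where the nearest 5′ end was that of jmjd-3.1. It had rank 16394 in replicate 1 and rank 1963 in replicate 2, so the replicates favoured different candidates of utx-1.

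Both Rb-pathway genes had reproducible promoter summits. The gene lin-35, a class B synMuv gene, encodes the worm retinoblastoma protein, a subunit of the repressive DREAM complex, on the plus strand of I:5807709-5815637. Its summit was 213 bp upstream in I:5807301-5807690, with a pooled signal of 252 at rank 674. The ranks were 1273 with a signal of 107 in replicate 1 and 464 with a signal of 152 in replicate 2, a 2.74-fold difference. The 5′ end of vps-51, transcribed the other way, was 205 bp from the summit, which is about as near as lin-35. The next candidate had 92.8, so lin-35 had a single high summit.

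The gene lin-53 encodes a histone-binding WD40 protein of the RbAp46/48 family, a subunit of both DREAM and NuRD, on the minus strand of I:9618196-9619760. It had 3 reproducible summits, the most of the set. The summit 251 bp upstream, in the 141 bp peak I:9619914-9620054, had a pooled signal of 312 at rank 389. Its ranks were 490 with a signal of 152 in replicate 1 and 352 with a signal of 169 in replicate 2. The 5′ end of nra-2 was 216 bp away and so a little nearer than lin-53.

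The other reproducible summits of lin-53 lay 4798 and 4998 bp upstream, with pooled signals of 262 at rank 607 and 177 at rank 1609. The first was in a coding exon of T05F1.2 and the second was intergenic. They overlapped the same replicate entries, at rank 367 with a signal of 168 in replicate 1 and rank 1400 with a signal of 97.1 in replicate 2. Their nearest 5′ end was that of rps-19, a ribosomal protein gene, and the summits lay 1238 and 1038 bp downstream of it. These 2 summits are just inside the 5 kb limit. The nearest candidate outside the limit of a member was 5222 bp from cbp-1 and had a signal of 63.3.

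**Figure D2:**
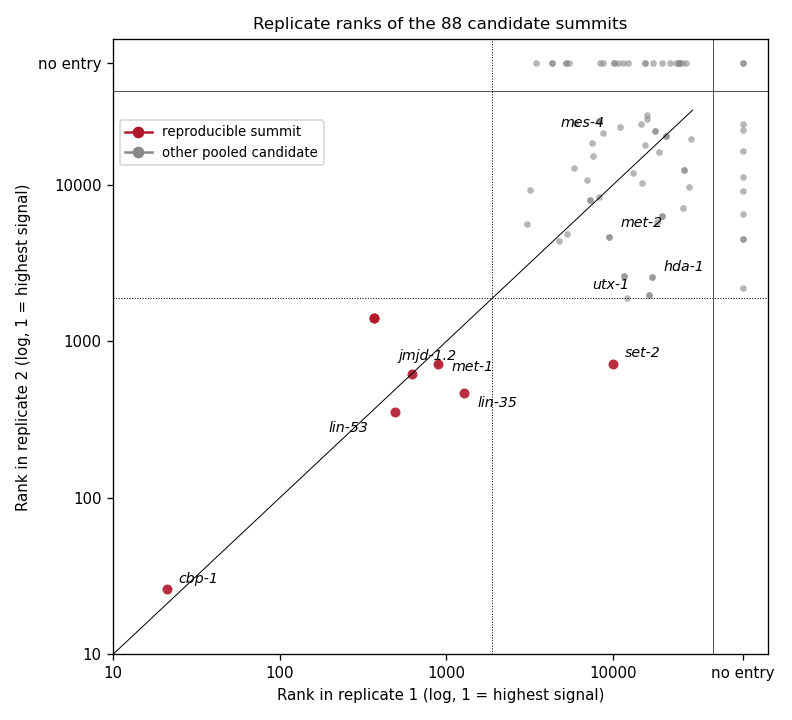
Rank of the overlapping entry in replicate 1 (horizontal) and replicate 2 (vertical) for each of the 88 candidate summits, on log axes, with rank 1 the highest signal, dotted lines at the rank equal to the length of the reproducible list, and separate strips where a replicate had no overlapping entry. Of the 8 reproducible summits, in red, 7 lie within the dotted lines of both replicates, and set-2 is at rank 9982 in replicate 1; gene names stand beside each gene's highest candidate.

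The 6 promoter summits were set beside those of all genes. All 6 were upstream of the 5′ end, as were 723 of the 834 protein-coding genes with such a summit (86.7%). Their distances ran from 140 to 857 bp, with a median of -255 bp, against a median of -266 bp and quartiles of -540 and -110 bp over the 834 genes. Their median signal was 258, against a median of 233 with quartiles of 190.0 and 312 over the 834 genes, with cbp-1 above the upper quartile and set-2 below the lower. In 3 of the 6 (jmjd-1.2, lin-35 and lin-53) the summit was also in the promoter window of another protein-coding gene, against 295 of 834 (35.4%), and in those 3 the neighbour's 5′ end was nearer. Among the 834 genes, 80.1% had the nearest 5′ end themselves. The distance of cbp-1 lay beyond the quartiles over the 834 genes, and the other 5 distances lay between them. The role of the paired 5′ ends in these calls was not tested, and a summit between them cannot be assigned to either gene.

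Small RNA genes were not near these summits: none of the 8 had a tRNA, snoRNA, snRNA or rRNA gene within 100 bp, while 311 of all reproducible summits did (16.5%). The gene chd-7 lies 421 kb from the nearest member, met-1, and unc-119 lies 1128 kb from the nearest, cbp-1. The fold between replicate ranks was 1.00 at jmjd-1.2, 1.24 at cbp-1, 1.26 at met-1 and 1.39 at the promoter of lin-53, all below the median of 1.89 over reproducible peaks. It was 2.74 at lin-35 and 3.81 at the distal lin-53 summits, and the upper quartile over all was 3.08.

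Within 5 kb of the gene, the same 6 of 10 members had a reproducible summit, against 19.2% of protein-coding genes (3828 of 19973). A pooled candidate of any rank was in the promoter window of 9 of the 10, all but mes-4, and in 30.8% of protein-coding genes (6148 of 19973). Of these 9 members, 6 had a reproducible one, against 834 of the 6148 genes with such a candidate (13.6%). Since the members were selected on the same values, nothing is read from these differences. Of the 88 candidates, 8 were reproducible (9.09%), set beside 6.28% over the pooled list.

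**Figure D3:**
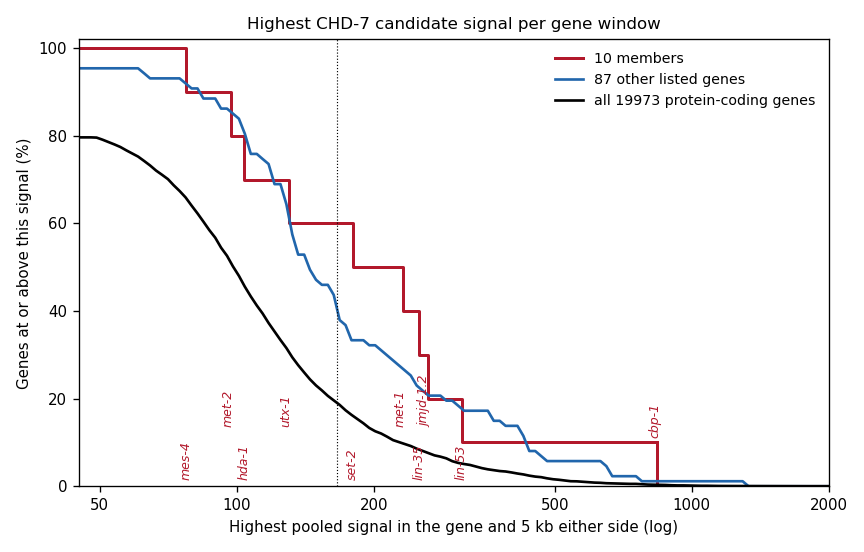
Share of genes (vertical, %) whose highest pooled candidate within 5 kb reaches the signal on the horizontal log axis, for the 10 members in red, 87 other histone modifier and synMuv genes in blue and all 19973 protein-coding genes in black; the dotted line is the lowest reproducible signal, 166. The 6 members to the right of it run from set-2 at 179.7 to cbp-1 at 841.

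Windows of the members held a median of 9 candidates in 15.8 kb, against 4 in 12 kb over all protein-coding genes. These counts include background entries, so a candidate outside the reproducible list is not shown to be bound by CHD-7. The −log10 q-value of the highest candidate was 1.32 at utx-1, 0.759 at hda-1, 0.656 at met-2 and 0.409 at mes-4. It was 3.01 at set-2 and 3.43 at each remaining member. Per 10 kb the medians were 5.70 and 2.75. The highest candidate of a window had a median signal of 206 over the members and 113 over all protein-coding genes with a candidate. The 80 candidates that were not reproducible had signals between 50.5 and 139 with a median of 68.2, against 72.3 over all such candidates. Of these 80, 42 were in coding exons (52.5%, against 42.4% of all such candidates), 20 were intergenic (25%, against 23.0%) and 7 were in introns (8.75%, against 26.2%). The 8 reproducible summits were placed otherwise: 6 were intergenic, against 44.2% of all reproducible summits. Replicate 1 met 77 of the 88 candidates (87.5%, against 82.6% of all) and replicate 2 met 62 (70.5%, against 73.7%).

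Other genes of the same pathways were taken from 10 lists of 99 symbols, of which 97 matched the annotation, and 87 of these are not members. The lists were drawn up with earlier results of these data known. Of the 87, 34 had a reproducible summit within 5 kb (39.1%, against 19.2% of all protein-coding genes) and 15 in the promoter window (17.2%, against 4.18%). A pooled candidate was in the promoter window of 48, of which 31.2% had a reproducible one, against 13.6% over all genes with a candidate there. Counted only for the nearest 5′ end, 20 of the 87 had a reproducible summit within 5 kb, against 7.38% of all protein-coding genes. In the promoter window 14 had one by that rule (16.1%, against 3.35%). The highest candidate of these genes had a median signal of 147, against 206 in the 10 members.

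The DREAM complex list, which holds lin-35 and lin-53, had 5 of 8 genes with a reproducible promoter summit. The other 3 were lin-54, whose product binds the TTTGAA element, with a signal of 424 at 371 bp upstream in a window shared with rpl-12, lin-9 with 385 at 160 bp upstream, and lin-52 with 251 at 89 bp downstream of the 5′ end. All 5 summits had signals between 251 and 424. Another gene's 5′ end was nearer at lin-35, lin-53 and lin-54, so 2 of 8 remained by the nearest 5′ end, lin-9 and lin-52. In the list of deacetylases and NuRD subunits, which also holds lin-53 and hda-1, 2 of 22 genes had one. These were lin-53 and sir-2.1, and sir-2.1, a sirtuin gene, had a signal of 175 and was the 1 of 22 that remained by the nearest 5′ end. Among the lysine 9 methylation genes and readers, where met-2 belongs, 0 of 9 had one, and 2 of these 9 genes had a reproducible summit within 5 kb. Over all protein-coding genes the shares were 4.18% in the promoter window, 3.35% by the nearest 5′ end and 19.2% within 5 kb. The lysine 9 counts are near these shares, so nothing is read from them.

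In the list for histone acetylation, 3 of 10 genes had a reproducible promoter summit: cbp-1, hat-1 and epc-1. The hat-1 summit had a signal of 419 at 228 bp upstream. That of epc-1 had 369 at 195 bp upstream in a window shared with Y111B2A.12, where the 5′ end of epc-1 was the nearer. COMPASS genes had 2 of 9, set-2 and set-16. The gene set-16, which encodes an MLL-type methyltransferase, had 663 at 167 bp upstream in a window shared with drr-2, and ranks of 52 in replicate 1 and 46 in replicate 2, so it stood well above set-2 in both. Lysine 36 methylation genes had 2 of 4, met-1 and lin-59 with 361 at 585 bp upstream. Demethylases had 3 of 13: jmjd-1.2, rbr-2 with 236 at 717 bp upstream and jmjd-4 with 166 at 101 bp upstream. The jmjd-4 summit was in a window shared with mev-1 and rests on replicate 2, with rank 8586 in replicate 1 and rank 905 in replicate 2. By the nearest 5′ end jmjd-1.2 was lost from this list. The joint list for lysines 27 and 79 of histone H3 and lysine 20 of histone H4 had 2 of 8, spat-3 with 661 and set-4 with 284. These 2 calls are not counts for lysine 27 alone. Arginine methyltransferases had 1 of 4, prmt-5 with 471, and the remaining synMuv genes 2 of 11, gei-4 with 280.1 and lin-13 with 212. The share to set beside each of these lists, over all protein-coding genes, was 4.18%.

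**Figure D4:**
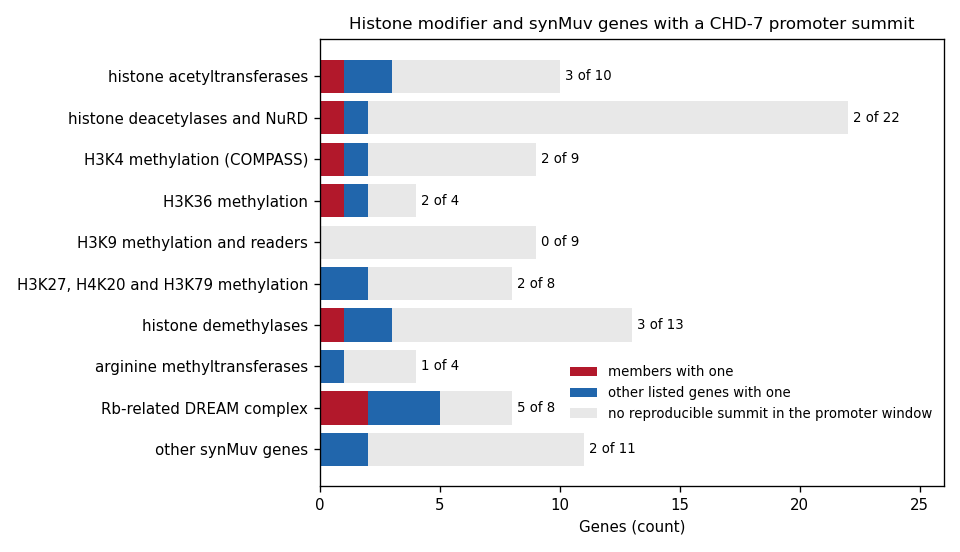
Number of genes in each list (horizontal axis) with a reproducible CHD-7 summit in the promoter window, in red for members and in blue for other listed genes, and in grey for genes with none; the counts stand beside the bars, and lin-53 is in both the DREAM list and the deacetylase and NuRD list. The DREAM list stands at 5 of 8 (2 of 8 by the nearest 5′ end) and the lysine 9 methylation list at 0 of 9. Over all protein-coding genes the share was 4.18% (3.35% by the nearest 5′ end).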

How the data were processed

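The signal of each peak and its −log10 q-value are the authors' deposited values, in lists on the ce11 build. Per the deposited list of files, peaks plus background were called for the replicates and for their pool, each with 1 control alignment, and the reproducible list was derived from those lists. Peak caller, aligner and reproducibility cutoff: not given in the sources used here. Signal served to describe and rank peaks within a list, because −log10 q was tied at 3.43 for 1350 of 1884 reproducible peaks. The replicate lists were made separately, so replicates were compared by rank. Summits were placed from the deposited peak offset. A replicate met a candidate where its entry overlapped the peak by at least 1 bp. Gene ends came from Ensembl release 115 (WBcel235). Each summit took the first class that applied of coding exon, 5′ UTR, 3′ UTR, other exon, intron, non-coding exon and intergenic. The lists on ce10 were not used.

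The 10 members and the 10 gene lists were chosen with earlier results of these data known. All members were named, with the nearest 5′ end to each reproducible summit in their windows, non-coding genes within 100 bp, and every other listed gene with a reproducible promoter summit or, up to 10, one within 5 kb. Other genes were named after their values were seen. No test was made. Window counting was tested on simulated data with planted peaks. Alternatives were other distances and promoter windows, whole intervals, the 942 higher peaks, each replicate alone, summits away from small RNA genes, and the nearest 5′ end only, which was applied to the promoter counts of the lists after seeing the data. Python 3.11.15, pandas 2.3.3, numpy 2.4.6 and matplotlib 3.10.9 were used.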

Additional observations from a re-analysis of the deposited data

How the results depend on the processing

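With 1 group, only counts and values without a test could be recomputed. Of 96 alternative values, 79 kept the reported signal or, for counts and shares, stayed within 1.5 times the reported one. Counting a summit only for the nearest 5′ end left 3 members within 5 kb, 3 in promoters and 3 summits (cbp-1, met-1 and set-2). It also left 20 other listed genes and 7.38% of protein-coding genes, and by construction it removes genes that share a 5′ region. The share of protein-coding genes was 12.1% at 2 kb, 9.52% at 1 kb, 29.1% at 10 kb and 11.1% with the stricter list of higher peaks. Other listed genes numbered 21 at 1 kb. At 10 kb the highest signal became 111 for met-2, 466 for lin-53 and 191 for utx-1, and for utx-1 it was 91.7 at 1 kb and at 2 kb. Each replicate alone gave 5 to 6 members within 5 kb, 5 to 6 in promoters, 7 summits, 19.0 to 19.7% of protein-coding genes and 37 to 38 other listed genes. The member lost without replicate 2 was set-2, which that stricter list also lacked. A promoter window of 500 bp up and 100 bp down lost cbp-1, and 10 kb added utx-1. No paired analysis was possible because there is 1 group. Depth is unknown, so a candidate missing from a list is not shown to be absent.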

Other observations

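Of the 22 deacetylase and NuRD genes, lin-53 and hda-1 included, 10 had a reproducible CHD-7 summit within 5 kb and 2 of these had it in the promoter window, while the shares of all protein-coding genes were 19.2% and 4.18%. The class II deacetylase gene hda-4 had a summit with a signal of 439 at 2542 bp upstream of its 5′ end, and its own 5′ end was the nearest. For sin-3, which encodes the scaffold of another deacetylase complex, a summit with 366 was nearest to F02E9.5. For egl-27, an MTA-type NuRD subunit gene, the highest of 3 had 305 and was nearest to tbc-6. The highest summit near any listed gene, with 1321 at rank 4, was in the window of the heterochromatin protein gene hpl-2, 3730 bp upstream, where the nearest 5′ end was that of tasp-1.

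Several windows hold a peak whose nearest 5′ end is that of another gene. The window of rba-1, the paralogue next to lin-53, holds the same peak as the lin-53 promoter, with 312, and lex-1 and mig-32 share a peak with 439 nearest to rbm-34, with a small RNA gene within 100 bp. The chromodomain gene cec-4 had 466 at 1636 bp upstream, where its own 5′ end was the nearest of a protein-coding gene and a small RNA gene lay within 100 bp. Of the 34 other listed genes with a reproducible summit within 5 kb, 19 had none in the promoter window.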
